A study of Mus musculus with 4 samples.

Results

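CXCL12 and apelin signalling was followed through 6 genes in single-cell transcriptomes of mouse hearts at E10.5: the chemokine Cxcl12, its receptors Cxcr4 and Ackr3, the peptide ligands Apln (apelin) and Apela (elabela), and their shared receptor Aplnr. These are 6 of the 32285 genes in the count matrices, each symbol was found on 1 row, and they held 50998 of the 772333327 UMIs of the cells analysed. The hearts came from Tie2 f/f embryos (labelled Tie2flfl, control libraries 5 and 7) and Nfatc1Cre;Tie2 f/f embryos (labelled Nfatcre-Tie2flfl, Tie2-cko libraries 6 and 8). All 4 libraries are therefore homozygous for the floxed Tie2 allele, and only Tie2-cko carries the Cre, a knock-in at Nfatc1 that is active in the endocardium and its descendants. Per the methods the embryos were littermates of mixed strain background and of either sex, and the whole cardiogenic region was dissected. Tie2, encoded by Tek, is the angiopoietin receptor of endothelium. Endocardial cells (EdCs) line the chambers and the cushions, and cardiomyocytes (CMs) form the muscle outside them.

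CXCL12 is a secreted chemokine that guides migrating cells through CXCR4, a G protein-coupled receptor. ACKR3 binds the same ligand with high affinity but couples to arrestin and takes CXCL12 up, so that it shapes the gradient that CXCR4 reads. Apelin and elabela both act on APLNR, a G protein-coupled receptor of angioblasts and vascular endothelium. Elabela acts before apelin in the embryo, and both axes are known for their parts in heart and coronary vessel development.

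All 6 genes code for proteins, and their places are given on GRCm38 with the GENCODE M21 annotation. Cxcl12 lies on the plus strand at chr6:117168535-117181367, Ackr3 on the plus strand at chr1:90203980-90216751, and Cxcr4 on the minus strand at chr1:128588199-128592293. Apln lies on the minus strand at chrX:48025146-48034853, Apela on the minus strand at chr8:65028417-65037336, and Aplnr on the plus strand at chr2:85136225-85139923. Promoter sequences, from 250 bases before to 50 bases after the start, were at hand from RefSeq for 5 of the 6 genes. The promoters of the 2 ligands with the clearest expression domains are shown, both on GRCm38.p6. Capitals mark the forkhead core GTAAACA, which was searched on both strands. Forkhead factors are known targets of TIE2 signalling.
Cxcl12, plus strand, chr6:117168285-117168584: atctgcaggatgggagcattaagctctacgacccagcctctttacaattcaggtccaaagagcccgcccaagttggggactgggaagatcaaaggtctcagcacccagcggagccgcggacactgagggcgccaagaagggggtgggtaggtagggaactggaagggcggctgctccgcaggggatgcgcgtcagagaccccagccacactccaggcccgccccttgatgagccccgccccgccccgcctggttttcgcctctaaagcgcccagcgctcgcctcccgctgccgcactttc
Apela, minus strand, chr8:65037287-65037586: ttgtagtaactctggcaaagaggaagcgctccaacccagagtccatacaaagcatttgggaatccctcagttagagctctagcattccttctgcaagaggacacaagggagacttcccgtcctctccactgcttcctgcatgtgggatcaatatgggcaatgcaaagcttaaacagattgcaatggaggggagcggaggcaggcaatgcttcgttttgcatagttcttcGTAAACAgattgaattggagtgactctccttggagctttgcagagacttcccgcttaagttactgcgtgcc
The forkhead core was matched once among the 5 promoters, in Apela, beginning 21 bases before the start, and 3.65% of 32817 promoters of the same length hold it. The hypoxia response core, ACGTG or GCGTG, was matched in Ackr3, Cxcr4 and Apela and is found in 43.8% of all promoters. These matches describe letters in a window and not sites.

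The libraries held between 8877 and 18488 barcodes and between 169361996 and 259775540 UMIs. After filtering, 33419 cells were kept, 5684 to 10097 per library, with a median of 14878 to 25875 UMIs per cell, the largest median being that of library 6. Any pair of libraries shared 12 to 29 kept barcodes. The 27 clusters were found without the 6 genes, their pathway or Tek, and 24 of them had sufficient depth. They were named from markers listed for each cell type, or, where these did not settle it, from their leading genes. Libraries differed in the tissue they contained. Hepatic endoderm-like cells numbered 246 and 318 in libraries 5 and 6 but 0 and 53 in libraries 7 and 8, and the cluster led by Barx1 and Foxf1 numbered 535 and 564 against 2 and 3. Xist, which is transcribed in cells with 2 X chromosomes, was counted in 12.6% of the cells of library 5 and in 0.0473% to 0.123% of those of the other libraries, while the Y-linked gene Ddx3y was counted in 26.1% to 40.7% of the cells of each of the 4 libraries. Library 5 thus held cells of both sexes. The labels do not state how many hearts went into a library, and nothing else in them separates the replicates. Per the methods a pair of hearts was analysed per stage and genotype, taken from 1 litter, and no source used here ties a heart to a library. The p-values of genotype without a block measure the spread between libraries of a genotype. In fits with libraries or library pairs as a block they measure the spread left once block differences are taken out. The quasi-likelihood fit also draws each gene's spread toward that of the other genes. With a block, little is left in 4 libraries to estimate a gene's own spread, so those p-values rest largely on the other genes. A small p-value there does not measure agreement between libraries.

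Tek, the deleted gene, checked the labels. It was lower in Tie2-cko by a log2 fold change of -2.59 (SE 0.20, edgeR adjusted p = 0.0218) in chamber EdCs and -2.46 (SE 0.27, edgeR adjusted p = 0.0240) in cushion EdCs. In vascular EC-like cells the difference was -0.14 (SE 0.29), and in mesenchymal cells led by Twist1 and Hapln1 it was -3.08 (SE 0.43, edgeR adjusted p = 0.513). Lower Tek was thus measured in both endocardial classes, and no difference was detected in the vascular cluster. That cluster was named from its vascular endothelial marker list, so the level of this list is no check of the name. The summed level was 5.80 to 8.71 there, 0.809 to 1.48 in chamber EdCs and 0.681 to 0.794 in cushion EdCs. In the vascular cluster a share of 1.0 of the chamber EdC markers and 0.5 of the endocardial markers was present too. Emcn, a chamber EdC marker, was among its leading genes.

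Cxcl12 and Apela were highest in other cell types than their receptors, whereas Apln and its receptor Aplnr were highest in the same cluster. A level, here and in what follows, is the mean over a library's cells of a gene's UMIs scaled to 10000 UMIs in each cell. Levels are compared between cell types and libraries for 1 gene at a time, not between genes. Cxcl12 was high in outflow tract CMs and in clusters led by Hand1, Prrx1 and Postn, and Apela in epicardial cells. Ackr3 was high in endocardium and in mesenchyme led by Twist1 and Hapln1, Cxcr4 in cushion endocardium, and Apln and Aplnr in vascular EC-like cells.

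**Figure D1:**
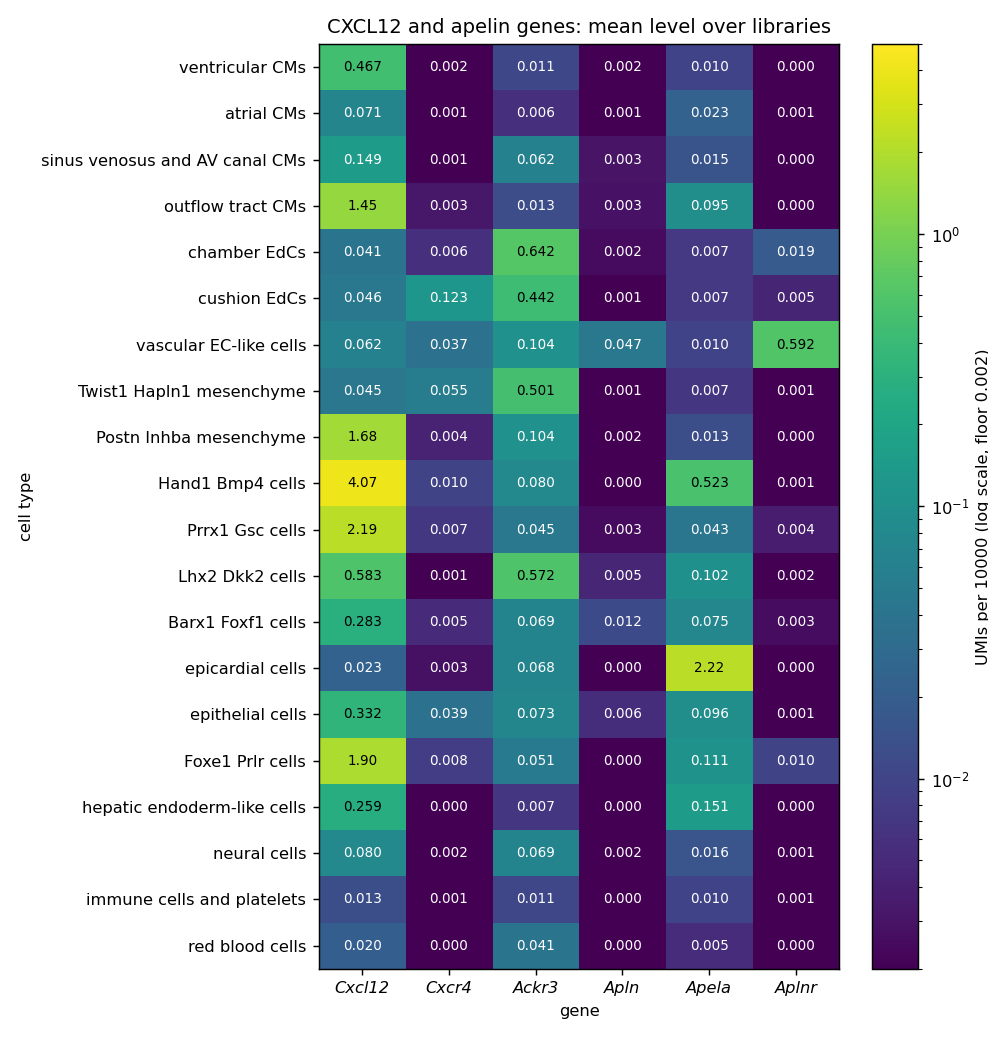
Mean level of the 6 genes (columns) in 20 cell types (rows), averaged over libraries with at least 10 cells of the type, in UMIs per 10000 on a logarithmic colour scale. Cxcl12 reaches 4.07 in Hand1 Bmp4 cells, Apela 2.22 in epicardial cells and Aplnr 0.592 in vascular EC-like cells, while Cxcr4 stays at or below 0.123.

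Cxcl12, the chemokine ligand, had its highest level in the cluster led by Hand1 and Bmp4. No marker list names this cluster: its summed level of CM markers was at least 28.9 in each library, against 5.06 to 9.52 in Postn Inhba mesenchyme and 217 to 234 in CMs. Its mesenchymal markers were at 3.43 to 8.45, against 16.9 to 20.6 and at most 0.472. There the controls 5 and 7 had levels of 3.89 and 3.90, and Tie2-cko 6 and 8 had 4.42 and 4.08. This range lay above that of every other cell type, the next being the cluster led by Prrx1 and Gsc at 1.94, 1.80, 2.88 and 2.15 in libraries 5, 7, 6 and 8. The cluster led by Postn and Inhba followed with 1.82 and 2.18 in the controls and 1.26 and 1.44 in Tie2-cko, and outflow tract CMs with 1.30 and 1.35 in the controls and 1.51 and 1.66 in Tie2-cko. The ranges of Prrx1 Gsc and Postn Inhba mesenchyme overlapped, as did those of Postn Inhba mesenchyme and outflow tract CMs. A small cluster led by Prlr and Foxe1, with 115 cells, lay among them at 1.63 to 2.31.

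Within the myocardium Cxcl12 was graded. Outflow tract CMs ranged from 1.30 to 1.66, ventricular CMs from 0.438 to 0.538, CMs of the sinus venosus and atrioventricular canal from 0.120 to 0.186, and atrial CMs from 0.0618 to 0.0924. None of these 4 ranges touched the next, so the order held in each library. After each cell was thinned to 5500 UMIs, 43.2% to 50.5% of outflow tract CMs had a Cxcl12 UMI, against 0.207% to 1.17% of red blood cells, which should lack the transcript and served as the background. CMs held 61.5% of all Cxcl12 UMIs (58.7% to 65.3% over the libraries), and outflow tract CMs alone held 21.0%. Chamber EdCs, cushion EdCs, Twist1 Hapln1 mesenchyme and epicardial cells had levels of 0.0232 to 0.0457, close to the mean of 0.0205 in red blood cells, and no expression was read from them.

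**Figure D2:**
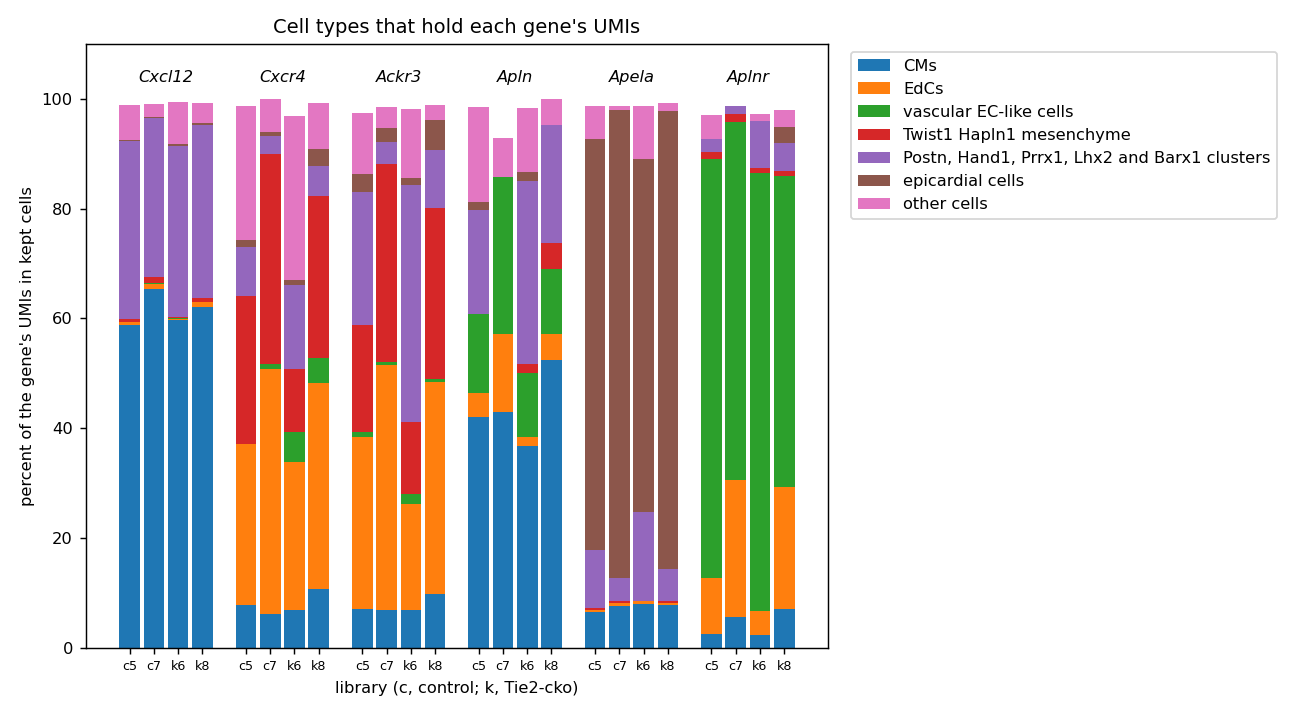
Percent of each gene's UMIs (vertical axis) held by groups of cell types, one bar per library (c, control; k, Tie2-cko); low-depth clusters make up the remainder to 100%. CMs hold 58.7% to 65.3% of Cxcl12 UMIs, epicardial cells 64.2% to 85.2% of Apela UMIs and vascular EC-like cells 56.6% to 79.7% of Aplnr UMIs.

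Cxcr4, the signalling receptor of CXCL12, was sparse. Its level in cushion EdCs was 0.0560 in control 5, 0.181 in control 7, 0.0743 in Tie2-cko 6 and 0.179 in Tie2-cko 8, from 20, 101, 32 and 94 UMIs. After thinning, 3.83%, 6.70%, 5.22% and 9.07% of cushion EdCs in these libraries had a Cxcr4 UMI, with exact 95% binomial intervals between 1.77% and 12.4% over the libraries. Red blood cells had none in any library, where a count of 0 allows a share of up to 0.265% in library 5 and 1.75% in library 8, and chamber EdCs had 0% to 0.725% per library. These intervals, like all in the text, cover counting error only.

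The next levels of Cxcr4 were those of the Twist1 Hapln1 mesenchyme, at 0.0227 to 0.0752, whose range overlapped that of cushion EdCs. Among the leading genes of each of their clusters were 2 cushion EdC markers and 1 general mesenchymal marker, with Twist1 on both lists. Of the whole lists, a share of 0.571 of the cushion EdC markers and 0.75 of the mesenchymal markers was present. Epithelial cells followed at 0.0180 to 0.0536, from 86 UMIs, with 15.4% of the Cxcr4 UMIs on average and up to 26.2% in a library. Vascular EC-like cells had 21 Cxcr4 UMIs in all and 0 in control 5. Their mean level was 0.0101 in the controls and 0.0639 in Tie2-cko. Cxcr4 did not pass the filter on low counts there, so it is not among the genotype tests. CMs had a mean level of 0.00168. Cushion EdCs and Twist1 Hapln1 mesenchyme held 31.7% and 26.6% of the Cxcr4 UMIs on average over the libraries.

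Ackr3, the scavenging receptor, was widespread in the endocardial lineage. In chamber EdCs its level was 0.370 in control 5, 0.784 in control 7, 0.457 in Tie2-cko 6 and 0.958 in Tie2-cko 8. Cushion EdCs had 0.265, 0.492, 0.302 and 0.711 in the same order, and Twist1 Hapln1 mesenchyme 0.282, 0.650, 0.374 and 0.697. The cluster led by Lhx2 and Dkk2 was in the same range at 0.352 to 0.919, and held 27 cells in library 7. The ranges of these 4 cell types overlapped, and all lay above that of vascular EC-like cells, at 0.0377 to 0.144. Red blood cells had 0.0178 to 0.0677, the widest background of the 6 genes. After thinning, 19.9% to 32.2% of chamber EdCs and 0.885% to 4.68% of red blood cells had an Ackr3 UMI.

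The 2 libraries of a genotype differed in Ackr3. Both libraries 7 and 8 lay above both libraries 5 and 6 in chamber EdCs, cushion EdCs and Twist1 Hapln1 mesenchyme, with ratios of the pair means of 2.11, 2.12 and 2.05. The ratios of the Tie2-cko mean to the control mean were 1.23, 1.34 and 1.15 in the same cell types. Libraries 7 and 8 lay above libraries 5 and 6 for 20.9% of all genes tested in chamber EdCs, 23% in cushion EdCs and 26.9% in Twist1 Hapln1 mesenchyme. The ratio in red blood cells was 3.31, in epicardial cells 1.56 and in vascular EC-like cells 1.29. Cxcr4 followed in cushion EdCs with a ratio of 2.76. What separates the pairs was not given in the labels, and its part in these levels was not tested.

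Apela, the early ligand of APLNR, was the clearest epicardial transcript of the group. Epicardial cells had levels of 1.83 in control 5, 2.52 in control 7, 2.04 in Tie2-cko 6 and 2.47 in Tie2-cko 8. They held 76.9% of all Apela UMIs, and 48.1% to 66.2% of thinned epicardial cells had a UMI against 0% to 1.17% of red blood cells. The control values enclosed those of Tie2-cko. Hand1 Bmp4 cells came next at 0.557 and 0.434 in controls 5 and 7 and 0.533 and 0.567 in Tie2-cko 6 and 8, without overlap with the cell types on either side in the order. Outflow tract CMs had 0.0617 and 0.0798 in the controls and 0.108 and 0.129 in Tie2-cko, higher in both Tie2-cko libraries, as were 11.3% of genes there. Ventricular CMs had 0.00774 to 0.0116, near the 0.000878 to 0.00978 of red blood cells.

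Apln, the later ligand, was close to the limit of detection, with 185 UMIs in 33419 cells. Vascular EC-like cells had the highest level, from 10 and 4 UMIs in controls 5 and 7 and 7 and 5 UMIs in Tie2-cko 6 and 8, which gave levels of 0.0639, 0.0563, 0.0424 and 0.0236. This range did not overlap that of any other cell type with at least 10 cells in a library. Red blood cells had 0 UMIs in every library, and a count of 0 in the thinned cells allows a share of 0.265% to 1.75%. CMs held 43.5% of Apln UMIs through their number, at a level of 0.00222.

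Aplnr, the receptor, marked the same small cluster. Its level in vascular EC-like cells was 0.503 in control 5, 0.811 in control 7, 0.634 in Tie2-cko 6 and 0.419 in Tie2-cko 8, from 126, 47, 177 and 56 UMIs in 93, 53, 71 and 92 cells. The groups overlapped. Of thinned cells 25.6%, 27.7%, 24.2% and 11.2% had an Aplnr UMI. Red blood cells had 0 after thinning, with the same limits as for Apln. Chamber EdCs followed at 0.0112 to 0.0231 and cushion EdCs at 0 to 0.00871, and vascular EC-like cells held 69.5% of all Aplnr UMIs. Neither CMs, with a level of 0.000452, nor epicardial cells, the source of Apela, carried the receptor above the 0 to 0.000811 of red blood cells by a margin that this depth could resolve.

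**Figure D3:**
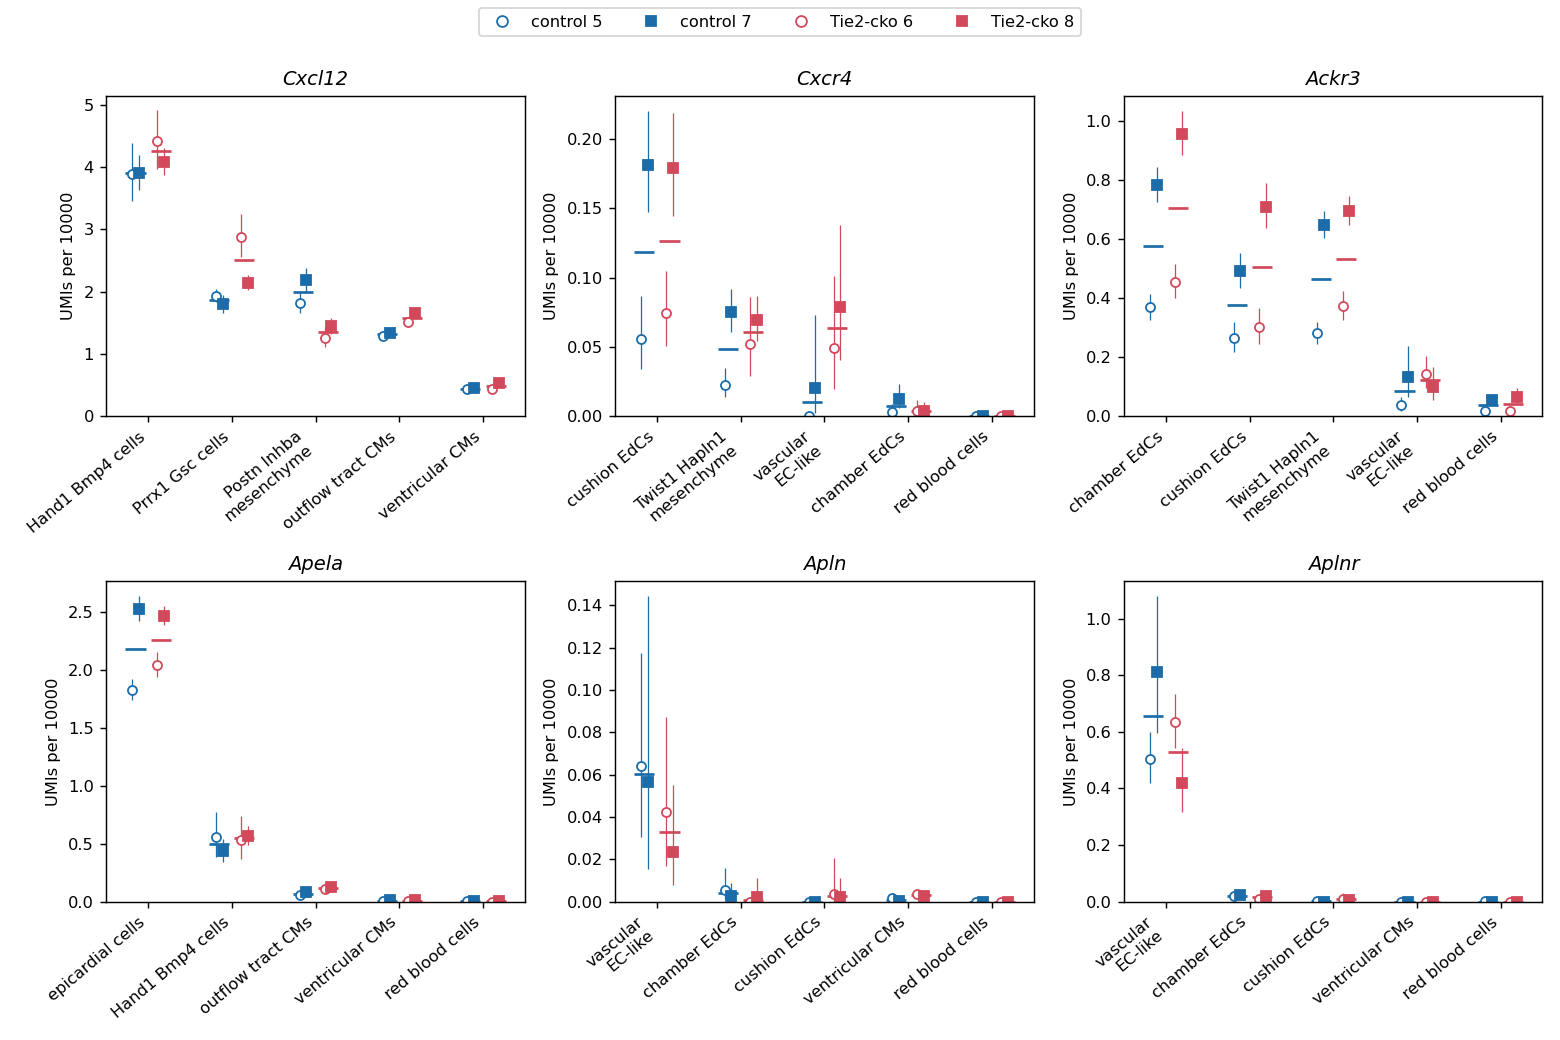
Level of each gene in UMIs per 10000 (vertical axes, linear, starting at 0) in 5 cell types per gene (horizontal axes). Points are libraries (controls 5 and 7 blue, Tie2-cko 6 and 8 red; open for 5 and 6), vertical lines exact 95% Poisson intervals of the UMI count scaled to the level, and horizontal bars genotype means. Libraries 7 and 8 lie above 5 and 6 for Ackr3 in chamber EdCs, as for 20.9% of all genes tested there. Both Tie2-cko libraries lie below the controls for Cxcl12 in Postn Inhba mesenchyme, as for 13% of all genes tested there.

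The receptors differed between the 2 endocardial classes. Summed counts of cushion and chamber EdCs were compared with the library as a block, and 5676 of 11845 genes (47.9%) passed the threshold of an adjusted p of 0.05, so a call is not uncommon in this comparison. Ackr3 was lower in cushion EdCs by -0.69 on the log2 scale (SE 0.07, edgeR adjusted p = 1.1e-06). Levels of Cxcr4 were 0.0560 to 0.181 in cushion EdCs and 0.00306 to 0.0126 in chamber EdCs. Those of Aplnr were 0 to 0.00871 in cushion EdCs and 0.0112 to 0.0231 in chamber EdCs. Cxcr4 had 20 UMIs in chamber EdCs and Aplnr 8 UMIs in cushion EdCs. Each passed the filter on low counts only through the class where it is high, so that no fold or test is given for them. The direction was the same in each of the 4 libraries for Cxcr4, Ackr3 and Aplnr. Cxcl12 differed by 0.46 (SE 0.24, edgeR adjusted p = 0.137), and Apln and Apela were too low to be tested.

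Cells with Cxcr4 and Ackr3 could be counted together after thinning. Among cushion EdCs, 31 of the 76 cells with a Cxcr4 UMI also had an Ackr3 UMI (40.8%), against 19.6% of the cells without Cxcr4. These cells are pooled over libraries that differ in both genes. Within libraries 5, 6, 7 and 8 the shares were 44.4%, 16.7%, 44.4% and 41.2% of 9, 6, 27 and 34 cells with Cxcr4, against 11.5%, 18.3%, 19.7% and 25.2% of those without. In Twist1 Hapln1 mesenchyme the pooled shares were 26.5% and 23.6%. Cells of 1 library are not replicates, so these shares carry no test.

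Of 30 further pathway genes in the files, out of 31 listed, 24 were tested between the endocardial classes and 18 passed, 13 higher and 5 lower in cushion EdCs. The median log2 difference of the 24 was 0.33, against -0.01 over all genes tested. Klf2, a flow-responsive transcription factor, was higher by 2.18 (SE 0.09), and Mme, a neutral endopeptidase, by 1.10 (SE 0.14). Gnai1, an inhibitory G protein subunit, was higher by 1.01 (SE 0.14) and the receptor kinase Grk5 by 0.97 (SE 0.15). Ramp1, a partner of Calcrl, was higher by 1.03 (SE 0.25) and Rgs5, an inhibitor of G protein signalling, by 1.10 (SE 0.34). Elmo1, a Rac activator, was higher by 0.80 (SE 0.10) and the protease Furin by 0.71 (SE 0.09). Gnai3, Gna13, Jak2, Arrb1 and Grk6 were higher by 0.32 to 0.53. Dpp4, a peptidase that inactivates CXCL12, was lower in cushion EdCs by -3.05 (SE 0.16), Ramp3 by -1.29 (SE 0.31) and Mif, another ligand of CXCR4, by -0.76 (SE 0.04). Calcrl and Gnai2 were lower by -0.24 and -0.15.

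Vascular EC-like cells, were compared with all EdCs in the same way. In this comparison 2584 of 12011 genes (21.5%) passed. Aplnr had 406 UMIs in 309 vascular EC-like cells and 67 UMIs in 2738 EdCs, at levels of 0.419 to 0.811 against 0.0101 to 0.0143. Apln had 26 and 8 UMIs in the same cells, at levels of 0.0236 to 0.0639 against 0.00146 to 0.00335. Aplnr and Apln passed the filter only through the vascular cluster, so that no fold or test is given for them. Ackr3 was lower in vascular EC-like cells by -2.34 (SE 0.19, edgeR adjusted p = 4.8e-07). Cxcr4 differed by -0.67 (SE 0.40, edgeR adjusted p = 0.261) and Cxcl12 by 0.55 (SE 0.31, edgeR adjusted p = 0.238).

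Of 26 pathway genes tested there, 11 passed, 7 higher and 4 lower, with a median log2 difference of -0.11 against -0.01 over all genes. Adm (adrenomedullin) was higher in vascular EC-like cells by 4.60 (SE 0.29), Pik3cg by 1.83 (SE 0.42), Ramp3 by 1.29 (SE 0.35), Mif by 0.87 (SE 0.08), Gnai2 by 0.51 (SE 0.07), Calcrl, the receptor on which RAMP proteins act, by 0.51 (SE 0.12) and Gnai1 by 0.45 (SE 0.15). Mme was lower by -3.04 (SE 0.35), Klf2 by -1.47 (SE 0.11), Grk5 by -1.18 (SE 0.33) and Furin by -0.93 (SE 0.14).

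Genes whose levels ran most alike over the 24 clusters were found by the correlation of log2(level + 0.05), a description over clusters that share libraries. Aplnr ran with Kcne3 (r = 0.99), Oit3 (r = 0.98) and the tight junction gene Cldn5 (r = 0.98). Apln ran with Kcne3 (r = 0.86), Aplnr (r = 0.84) and Cldn5 (r = 0.83), and Apela with Aplp1 (r = 0.88), the urothelial and mesothelial gene Upk3b (r = 0.86) and Pigyl (r = 0.85). Cxcr4 ran with Klf4 (r = 0.89), Pi16 (r = 0.83) and 5330416C01Rik (r = 0.83). Ackr3 ran with Bace2 (r = 0.86), the proteoglycan gene Bgn (r = 0.84) and Cdc42ep5 (r = 0.83), and Cxcl12 with Hand1 (r = 0.79), Fzd1 (r = 0.76) and Psd (r = 0.76). Cldn5 and Upk3b served as cell type markers here. Apln, at most 0.0457, lay below the added 0.05 in all 24 clusters. Aplnr did so outside the vascular cluster, with 0.0187 in chamber EdCs as its next level. Their r therefore rest largely on 1 cluster.

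The question of the design was whether these genes differed between control and Tie2-cko hearts. Genotype was tested on summed counts in 10 cell types, in which 32 tests of the 6 genes could be made, and none passed an edgeR adjusted p of 0.05. At an unadjusted p of 0.05, 2 of the 32 passed, Cxcl12 in Postn Inhba mesenchyme and Apela in outflow tract CMs, as did 1.94% of the tests of all genes in the same cell types. With the block described next 8 of the 32 did, and 7.66% of all tests. Over all genes, 0% passed in vascular EC-like cells, CMs, outflow tract CMs, Twist1 Hapln1 and Prrx1 Gsc cells, 0.00867% in chamber EdCs, 0.0535% in cushion EdCs, 0.0496% in Postn Inhba mesenchyme, 0.0564% in Hand1 Bmp4 cells and 0.0335% in epicardial cells. In a fit that blocked libraries 5 and 6 against 7 and 8, which the labels do not pair, 2 of the 32 passed, and these were the same 2. The planned fit had no block. The pairs are libraries that resembled each other in these data, so calls under the block are no independent evidence. With the block 7.53% of all genes passed in chamber EdCs, 0.419% in cushion EdCs, 0.316% in vascular EC-like cells, 0.302% in CMs, 0.454% in outflow tract CMs and 0.544% in epicardial cells. In the clusters called by their leading genes the shares were 0.458% (Twist1 Hapln1), 0.615% (Postn Inhba), 0.259% (Hand1 Bmp4) and 0.784% (Prrx1 Gsc).

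Cxcl12 in Postn Inhba mesenchyme was lower in Tie2-cko by a log2 fold change of -0.75 (SE 0.17, edgeR adjusted p = 1.00). With the block the difference was -0.75 (SE 0.11, edgeR adjusted p = 3.4e-08), where 0.615% of genes passed. Both Tie2-cko libraries lay below both controls, which was so for 13% of the genes tested in these cells. The ratio of levels was 0.693 between libraries 6 and 5 and 0.662 between libraries 8 and 7. Thinned shares of cells with a UMI were 37.1% and 41.2% in the controls and 24.7% and 30.8% in Tie2-cko. Leaving out 1 library at a time gave -0.94 without Tie2-cko 8 (edgeR adjusted p = 0.0174) and -0.59 without Tie2-cko 6 (edgeR adjusted p = 1.00), each a fit with 1 Tie2-cko library. When the Postn Inhba and Twist1 Hapln1 clusters were fitted jointly, as the 1 mesenchymal class first planned, Cxcl12 differed by -0.32 (SE 0.16, edgeR adjusted p = 1.00), with ratios of levels of 0.837 between libraries 6 and 5 and 0.990 between libraries 8 and 7. Tek differed by 0.05 (SE 0.29) in these cells. The summed level of red blood cell markers moved with genotype there, at 61.0 and 33.9 in the controls and 11.9 and 10.2 in Tie2-cko, as it did in the other tested types, while Cxcl12 in red blood cells themselves was 0.00893 to 0.0305. Of the other marker lists, the mesenchymal one was 17.2 and 16.9 in the controls and 20.6 and 18.4 in Tie2-cko. The neuronal list was 2.15 and 2.04 in the controls and 2.87 and 2.39 in Tie2-cko. The part of these lists in the result was not tested.

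Apela in outflow tract CMs was higher in Tie2-cko by 0.81 (SE 0.28, edgeR adjusted p = 1.00). With the block it was higher by 0.79 (SE 0.19, edgeR adjusted p = 0.00957), where 0.454% of genes passed. Both Tie2-cko libraries lay above both controls, as did 11.3% of the genes tested. The ratio of levels was 1.75 between libraries 6 and 5 and 1.61 between libraries 8 and 7, and the counts were 54 and 70 UMIs in the controls and 80 and 166 in Tie2-cko. The thinned shares, 3.32% and 2.71% in the controls and 3.07% and 5.34% in Tie2-cko, overlapped. Leaving out 1 library at a time gave 0.43 without Tie2-cko 8 to 1.09 without Tie2-cko 6, with edgeR adjusted p from 0.137 to 1.00. The summed level of the epicardial marker list in outflow tract CMs was 0.116 and 0.127 in the controls and 0.158 and 0.168 in Tie2-cko, and that of the mesenchymal list 0.367 and 0.344 against 0.510 and 0.520. Both lists moved with genotype as Apela did, and their part in the result was not tested. In epicardial cells, where Apela is abundant, the genotype difference was -0.0028 (SE 0.20).

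**Figure D4:**
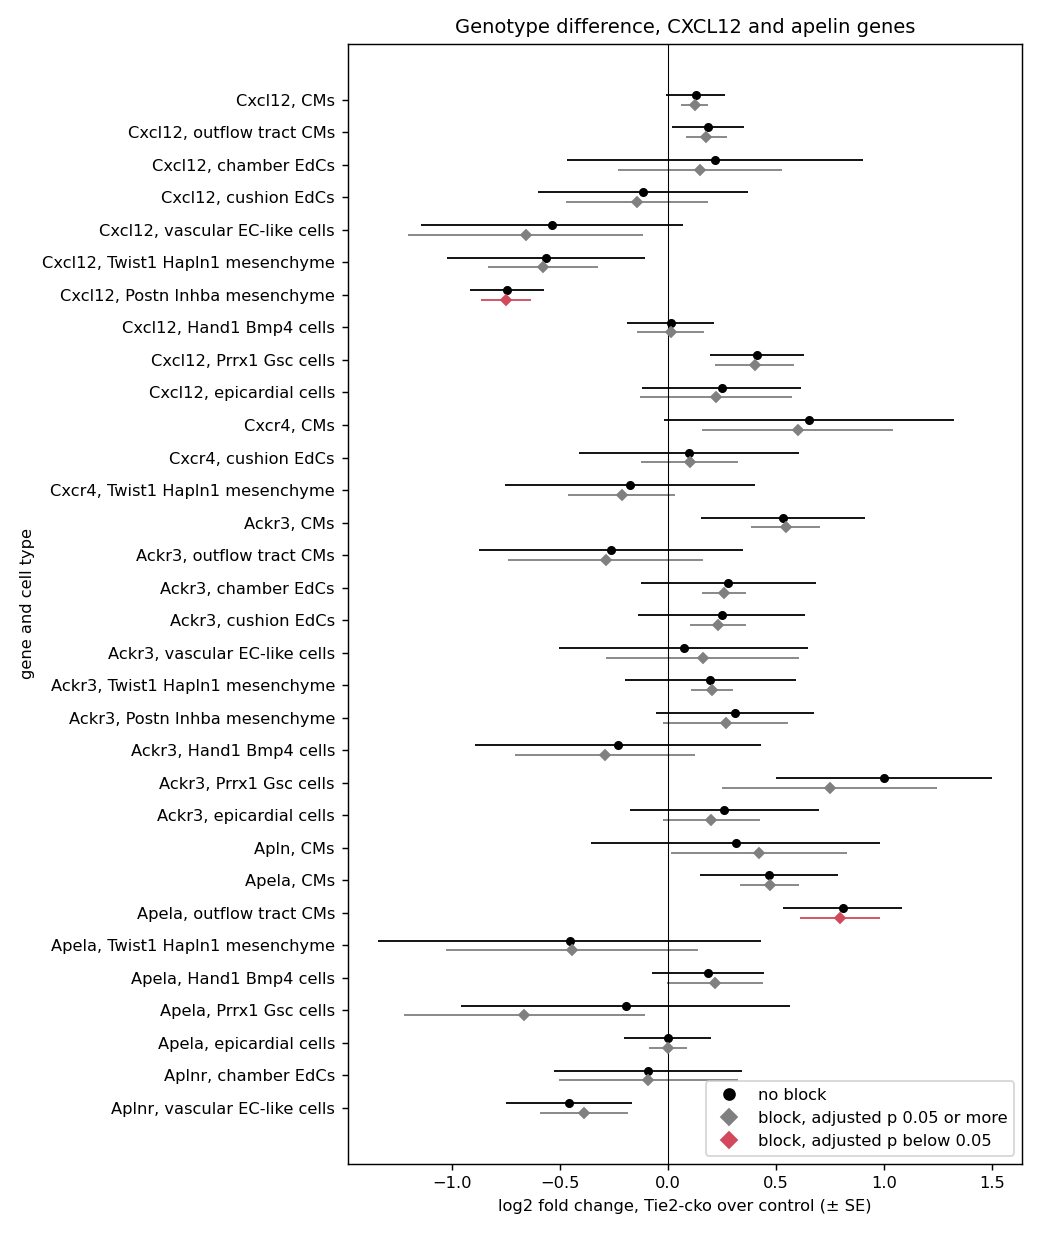
Log2 fold change of Tie2-cko over control (horizontal axis, ± SE) for each of the 32 combinations of gene and cell type tested (vertical axis). Black circles are fits without a block and diamonds fits with an unplanned block of libraries 5 and 6 against 7 and 8. Red diamonds pass an adjusted p of 0.05. The 2 red diamonds are Cxcl12 in Postn Inhba mesenchyme at -0.75 and Apela in outflow tract CMs at 0.79.

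The receptors showed no call in any tested type with either fit. Cxcr4 in vascular EC-like cells, where its counts were low, was not among these tests. Ackr3 differed by 0.28 (SE 0.41) in chamber EdCs, 0.25 (SE 0.39) in cushion EdCs and 0.20 (SE 0.40) in Twist1 Hapln1 mesenchyme. Its error was smaller under the block, at 0.26 (SE 0.10, edgeR adjusted p = 0.119) in chamber EdCs. The largest Ackr3 difference was 1.00 (SE 0.50) in Prrx1 Gsc cells, at a mean level of 0.0454 against 0.0406 in red blood cells. The ratio of levels there was 1.97 between libraries 6 and 5 and 2.40 between libraries 8 and 7. Leaving out control 7 moved the Twist1 Hapln1 value to 0.89 (edgeR adjusted p = 0.0347), and the sign of Ackr3 in chamber EdCs changed with the library left out. Cxcr4 in cushion EdCs differed by 0.10 (SE 0.51). Aplnr in vascular EC-like cells differed by -0.46 (SE 0.29, edgeR adjusted p = 1.00) on summed counts, and both Tie2-cko libraries lay below both controls after normalization, as did 12.1% of genes, although the mean levels per cell overlapped. The ratio of levels was 1.26 between libraries 6 and 5 and 0.517 between libraries 8 and 7. Leaving out 1 library at a time gave -0.85 to -0.19. Of 200 genes changed 2-fold in simulated counts of these 309 cells, 13 were recovered with 1 false call. In chamber EdCs 129 were recovered with 11 false calls, and in outflow tract CMs 123 with 6. The simulated libraries varied at the typical spread of genes and lacked the differences between library pairs. These numbers are therefore no recovery rate for the real fits.

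Cxcl12 differed little in the myocardium, by 0.13 (SE 0.14) in CMs and 0.19 (SE 0.17) in outflow tract CMs, and by 0.01 (SE 0.20) in Hand1 Bmp4 cells and 0.41 (SE 0.22) in Prrx1 Gsc cells. The genotype effect in chamber EdCs minus that in CMs, tested as a difference of its own, was 0.09 (SE 0.42, edgeR adjusted p = 0.977) for Cxcl12, which was at the background level in chamber EdCs, and -0.28 (SE 0.19, edgeR adjusted p = 0.613) for Ackr3, with 0.728% of genes passing. Without Tie2-cko 8 the Cxcl12 value was -1.95 (edgeR adjusted p = 0.0242). The Cxcl12 effect in Postn Inhba mesenchyme minus that in CMs, a test chosen after these data were seen, was -0.86 (SE 0.14, edgeR adjusted p = 8.1e-07), where 0.2% of genes passed. In Hand1 Bmp4 cells both Tie2-cko libraries lay above both controls after normalization, as did 16.2% of genes, and so they did in Prrx1 Gsc cells, as did 16.5% of genes. The same difference was -0.93 (edgeR adjusted p = 0.00632) against outflow tract CMs, where 0.055% of genes passed, and -0.75 (edgeR adjusted p = 0.0365) against Hand1 Bmp4 cells, where 0.0732% passed. Against Prrx1 Gsc cells it was -1.11 (edgeR adjusted p = 0.105), where 0% passed. Without control 7 the adjusted p against outflow tract CMs was 0.0843 by edgeR. Against Hand1 Bmp4 cells it was 0.590 without control 5, 0.144 without Tie2-cko 6 and 0.338 without control 7 by edgeR.

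Among the other pathway genes, 16 to 26 were tested per cell type and none passed by genotype without the block. In chamber EdCs 24 were tested, with a median log2 fold change of 0.03 against 0.00 for all genes. The smallest p-values there were those of Ramp3 at -1.08 (SE 0.33, edgeR adjusted p = 0.562), the transcription factor Stat3 at 0.42 (SE 0.18, edgeR adjusted p = 0.682) and Gnai1 at 0.44 (SE 0.22, edgeR adjusted p = 0.724). With the block Ramp3 passed in chamber EdCs at -1.08 (SE 0.35, edgeR adjusted p = 0.0431), where 7.53% of genes did. Rgs5 passed with the block in cushion EdCs at 1.45, in Prrx1 Gsc cells at 0.71 and in Postn Inhba mesenchyme at -0.41, and Klf2 in epicardial cells at 0.66.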

How the data were processed

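Counts of unique molecular identifiers (UMIs) per gene and barcode were deposited by the authors as raw counts from 10x libraries of whole E10.5 hearts, made with Cell Ranger (mm10 by the submitters' processing notes; version 6.1.2 by the file header, another in the methods). Barcodes with at least 500 genes, 1000 UMIs and at most 10% mitochondrial UMIs were kept, after which the top Scrublet scores (scanpy 1.11.5), 0.8% per 1000 barcodes, were dropped as doublets. Seurat 5.3.0 clustered the cells without integration on 1983 variable genes, with the 6 genes, 31 pathway genes, Tek and 5 sex-linked genes left out, with 30 principal components, 20 nearest neighbours and resolution 0.8. A cluster took a cell type name if at least 0.75 of the type's markers were present, a level fixed after the clusters were seen, and otherwise that of 2 leading genes. Clusters under 0.333 of their libraries' median UMI number were left out.

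Sums of the counts over the cells of each type in a library were tested with edgeR 4.0.16 (TMM, filterByExpr, quasi-likelihood), with Benjamini-Hochberg adjustment over all genes tested and a threshold of 0.05. SE was derived from the F statistic (the size of the log2 change over root F). DESeq2 1.42.0, the size factors, the filter, each library, the cell filter, the doublet rate and the block were varied. The step was checked on simulated counts. Mesenchymal cells (MCs) had been planned as 1 class. They were split after the clusters were seen, by whether Inhba was among a cluster's leading genes. The 2 clusters without it held more cushion EdC than MC markers among these genes, but a larger share of the whole MC list. Outflow tract CMs and the Hand1 and Prrx1 clusters were added. The members and lists were chosen with earlier results of these data known. Named were the 6 genes, Tek, pathway genes that passed (or the 3 smallest p in chamber EdCs) and the 3 genes most alike in level, among those reaching 0.5 UMIs per 10000. Gene identifiers were matched to GENCODE M21 (32235 of 32285).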

Additional observations from a re-analysis of the deposited data

Results flagged for a closer look

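Cxcl12 in Postn Inhba mesenchyme had Tie2-cko levels below those of each control, while in the clusters led by Hand1 and Bmp4 and by Prrx1 and Gsc they lay above them. After normalization of summed counts the same held for 13% of all genes tested in Postn Inhba mesenchyme, 16.2% in Hand1 Bmp4 cells and 16.5% in Prrx1 Gsc cells. For Hand1 Bmp4 cells the fitted difference was only 0.01 (SE 0.20), and it was -0.0043 with the stricter cell filter and -0.0271 with the doublet rate doubled. The effect in Postn Inhba mesenchyme minus that in another type, with the library as a block, was -0.86 against CMs (edgeR adjusted p = 8.1e-07), -0.93 against outflow tract CMs (edgeR adjusted p = 0.00632) and -0.75 against Hand1 Bmp4 cells (edgeR adjusted p = 0.0365). Against Prrx1 Gsc cells it was -1.11 (edgeR adjusted p = 0.105), which did not pass. Without control 7, the value against outflow tract CMs had an edgeR adjusted p of 0.0843. Against Hand1 Bmp4 cells the edgeR adjusted p was 0.590 without control 5, 0.144 without Tie2-cko 6 and 0.338 without control 7. These 4 contrasts were picked because the values seen differed and were tested on the same 4 libraries, so they describe that difference and are no independent evidence of it. Library 6 held 36 Hand1 Bmp4 cells and 50 Prrx1 Gsc cells.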

How the results depend on the processing

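The labels give the control and Tie2-cko libraries no shared replicate numbers. Per the methods, control and mutant libraries of 1 litter were sequenced together, but no source used here says which libraries these were. As an alternative that was not planned, a replicate block set libraries 5 and 6 against 7 and 8, pairs that resembled each other in these data. With this block Cxcl12 in Postn Inhba mesenchyme (-0.7509) and Apela in outflow tract CMs (0.7948) passed, Apela in epicardial cells changed sign to 0.0004, and the number of genes called over all genes became 868 in chamber EdCs, 47 in cushion EdCs, 29 in vascular EC-like cells, 47 in CMs, 56 in outflow tract CMs, 62 in Postn Inhba mesenchyme and 65 in epicardial cells. Without the block these numbers were 1, 6, 0, 0, 0, 5 and 4.

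DESeq2 called 26 genes in chamber EdCs, 6 in vascular EC-like cells, 2 in CMs, 5 in outflow tract CMs and 7 in epicardial cells. Without the filter on low counts the numbers were 190 in chamber EdCs, 23 in cushion EdCs, 22 in vascular EC-like cells, 3 in outflow tract CMs, 22 in Postn Inhba mesenchyme and 0 in epicardial cells, and the Cxcl12 effect in Postn Inhba minus that in Prrx1 Gsc cells passed at -1.1064. The stricter cell filter gave 2 genes in vascular EC-like cells, 4 in outflow tract CMs and -0.0043 for Cxcl12 in Hand1 Bmp4 cells. Doubling the doublet rate gave 3 genes in Postn Inhba mesenchyme, 0 in epicardial cells and -0.0271 for Cxcl12 in Hand1 Bmp4 cells. Without thinning the shares of cells with a UMI were 80.5% (Cxcl12, outflow tract CMs), 15.8% (Cxcr4, cushion EdCs), 50.7% (Ackr3, chamber EdCs), 87.3% (Apela, epicardial cells), 7.43% (Apln, vascular EC-like cells) and 45.1% (Aplnr, vascular EC-like cells).

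Leaving out 1 library at a time leaves a genotype with 1 library, which is then assumed to vary like the others. Ackr3 then ranged from -0.46 to 0.84 in chamber EdCs, -0.55 to 0.82 in cushion EdCs and -0.35 to 0.89 in Twist1 Hapln1 mesenchyme, and Cxcr4 in cushion EdCs from -0.53 to 1.41. Cxcl12 ranged from -0.0181 to 0.260 in CMs, -0.0187 to 0.360 in outflow tract CMs, -0.94 to -0.59 in Postn Inhba mesenchyme and -0.0009 to 0.0179 in Hand1 Bmp4 cells, and Apela in epicardial cells from -0.22 to 0.25. For Cxcl12 the effect in chamber EdCs minus that in CMs ranged from -1.95 to 0.76, and the effect in Postn Inhba mesenchyme minus that in another type from -0.95 to -0.91 (outflow tract CMs), -0.93 to -0.62 (Hand1 Bmp4) and -1.55 to -0.79 (Prrx1 Gsc). Genes called ranged from 31 to 100 in chamber EdCs, 6 to 14 in cushion EdCs, 0 to 57 in vascular EC-like cells, 0 to 3 in CMs, 8 to 40 in outflow tract CMs, 5 to 64 in Postn Inhba mesenchyme and 6 to 63 in epicardial cells. The causes of these changes were not tested. Over the settings other than leaving out a library, 128 values kept their direction and side of the threshold, were within 1 SD or, for numbers of genes, within 1.5 times. Of the rest, 28 numbers of genes or shares of cells moved further, 3 values changed direction and 3 passed the threshold where they had not. Apln was too sparse for a genotype test in any endothelial class.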
